A study of Homo sapiens with 24 samples.

Results

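The CDK inhibitor family is the set of 7 genes whose proteins hold back cyclin-dependent kinases (CDKs). Its members were taken by symbol from the count table: CDKN1A, CDKN1B and CDKN1C of the CIP/KIP group, and CDKN2A, CDKN2B, CDKN2C and CDKN2D of the INK4 group. All 7 were among the 33113 genes of the table, and all 7 were among the 19452 genes with a count in any sample, which were tested. CDKN1A, which encodes p21, rose after oxaliplatin 13-fold in HCT116 cells and 7.32-fold in its oxaliplatin-resistant derivative HCT116 oxpl-R. CDKN2C, which encodes p18, rose 1.6-fold in the parental line and fell 2.33-fold in the resistant one. CDKN2A rose 2.57-fold in the parental line, and its response differed between the lines.

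Progress from G1 to S phase is driven by cyclin D with CDK4 or CDK6 and by cyclin E with CDK2, which phosphorylate the retinoblastoma protein (RB) and so release the E2F transcription factors. INK4 proteins bind CDK4 and CDK6 alone, whereas CIP/KIP proteins bind complexes of cyclins and CDKs more broadly. CDKN1A (p21) is a classical target of p53, which DNA damage by platinum drugs activates, and HCT116 cells carry wild-type p53. The adenovirus protein E1A binds RB and its relatives and frees E2F without a CDK.

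RNA of 24 samples was sequenced, with 3 samples labelled as biological replicates in each of 8 groups. HCT116, a human colorectal adenocarcinoma line, and HCT116 oxpl-R, an oxaliplatin-resistant line that was derived from it by pulses of the drug and has an altered karyotype, both carried a doxycycline-inducible E1A transgene (TetOn-E1A). Each line was left untreated (control), given 0.5 µg/mL doxycycline (E1A), given 25 µM oxaliplatin for 24 h (oxaliplatin), or given doxycycline before the same oxaliplatin treatment (E1A + oxaliplatin). Cells without the transgene were not among the samples, so doxycycline and E1A cannot be told apart, and E1A RNA was not analysed here. The RNA came from bulk cultures, in which fewer cells with a transcript and less of it per cell cannot be told apart.

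Levels are in CPM, the counts scaled to a common library total. The counts summed to between 24838095 and 37927720 per sample. Within groups, log2(CPM + 1) correlated across 11097 genes at r = 0.964 to 0.997. HCT116 oxaliplatin replicate 3 correlated with its group at 0.964 to 0.968, where replicates 1 and 2 shared 0.993. HCT116 E1A + oxaliplatin replicate 1 did so at 0.964 to 0.971, where replicates 2 and 3 shared 0.994. The HCT116 oxpl-R oxaliplatin replicate 1 library stood apart in mitochondrial counts. In it 37 genes of the mitochondrial genome held 1.4% of counts, against 11% to 19.7% in the other 23 libraries. The calls on the members that rest on it are given with and without it. Each of 10 markers of colorectal epithelial cells exceeded 3 counts in some sample, with 7 to 9 of them doing so within a group, and they summed to between 5699 and 18214 CPM. That sum was 6499 to 7003 CPM in HCT116 control samples and 11432 to 11715 CPM after oxaliplatin, and its part in the results was not tested. Markers of leukocytes summed to at most 2.8 CPM and those of endothelial cells to at most 0.9, while those of fibroblasts summed to between 13.2 and 53.6, led by COL1A1, and DCN and LUM did not exceed 3 counts in any sample.

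Regulatory sequences of 3 members are shown: CDKN1A, which had the largest ratio between group means, and CDKN2C with CDKN2D, the members whose levels correlated most. CDKN1A lies at chr6:36676460-36687337 on the plus strand of GRCh38 (GENCODE). The 2500 bases before each annotated start of the members were searched for a p53 binding site of 20 bases, made of 2 adjoining half-sites, with at most 2 letters off the consensus, a limit chosen after a search with 1 letter off found none in the members. Of 6 members with a start, CDKN1A alone had a match, at chr6:36676449-36676468, 2265 bases before the start at 36678714. Such a match occurred before 1.99% of 21606 starts of protein-coding genes, and one with at most 1 letter off before 0.33%. The site is shown on the plus strand with 10 bases on each side, and capitals mark the match.

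CDKN1A p53 match: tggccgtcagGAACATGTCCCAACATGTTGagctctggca

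RefSeq windows on GRCh38.p14, from 250 bases before a start to 50 bases after it, were matched by symbol for 6 of the 7 members, with 9 starts in all. The windows below belong to CDKN1A (chr6:36678464-36678763, plus strand) and to CDKN2C (chr1:50968456-50968755, plus strand) and CDKN2D (chr19:10568930-10569229, minus strand), the pair of members whose levels followed each other most closely across the samples. Capitals mark GGGCGG, the core of the site bound by the factor Sp1, read on either strand as GGGCGG or CCGCCC, and runs of capitals longer than the motif hold overlapping copies.

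CDKN1A: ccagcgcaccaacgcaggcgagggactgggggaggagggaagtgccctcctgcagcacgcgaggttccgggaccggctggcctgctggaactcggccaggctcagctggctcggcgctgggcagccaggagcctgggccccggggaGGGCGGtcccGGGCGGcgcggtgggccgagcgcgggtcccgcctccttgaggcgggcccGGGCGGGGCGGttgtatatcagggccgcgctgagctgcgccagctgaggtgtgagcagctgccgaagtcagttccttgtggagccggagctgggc

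CDKN2C: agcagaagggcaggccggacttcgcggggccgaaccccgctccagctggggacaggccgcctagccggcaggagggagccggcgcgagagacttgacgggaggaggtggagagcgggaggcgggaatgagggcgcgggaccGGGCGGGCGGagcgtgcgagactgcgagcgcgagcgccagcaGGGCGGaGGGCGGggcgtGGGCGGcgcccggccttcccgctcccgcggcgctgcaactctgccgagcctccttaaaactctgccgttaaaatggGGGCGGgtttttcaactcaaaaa

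CDKN2D: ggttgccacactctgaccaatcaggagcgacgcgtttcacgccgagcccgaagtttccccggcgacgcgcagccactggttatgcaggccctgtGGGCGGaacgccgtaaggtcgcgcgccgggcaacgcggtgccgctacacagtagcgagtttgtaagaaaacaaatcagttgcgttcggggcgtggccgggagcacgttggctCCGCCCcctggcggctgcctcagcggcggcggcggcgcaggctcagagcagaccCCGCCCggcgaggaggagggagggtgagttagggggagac

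The motif occurred 4 times in the CDKN1A window, 6 times in the CDKN2C window shown and 3 times in the CDKN2D window. CDKN2C had windows at other starts as well, with 0 copies at 50960745 and 1 copy at 50970245. It was found in 7 of the 9 windows of the members and in 45% of 35116 windows of all genes. TATAAA was found in 0 of the 9 windows of the members and in 11.5% of all windows. The E2F words TTTCCCGC, TTTCGCGC, TTTGCCGC and TTTGGCGC, searched on both strands, were found in 0 of the 9 and in 3.3% of all. These matches describe letters only.

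Levels of the members are CPM after TMM normalization, and each group has 3 samples. Compared per kilobase of the reference (MANE) transcript, CDKN2A was the most abundant member in untreated HCT116 cells, with 85.4 CPM per kb, followed by CDKN1A with 68.2. This order depends on the lengths used, 978 bases for CDKN2A and 2117 for CDKN1A. In CPM not divided by length CDKN1A led, with 144 against 83.6. CDKN1B, CDKN2D and CDKN2C lay at 15.6, 13.8 and 13.1 CPM per kb, CDKN1C at 7.65 and CDKN2B at 1.69. In untreated HCT116 oxpl-R cells CDKN1A led with 268 CPM per kb and CDKN2A was next with 67.7. After oxaliplatin CDKN1A reached 887 CPM per kb in HCT116 and 1960 in HCT116 oxpl-R cells. Per kb CDKN2B was the least abundant member in each of the 8 groups. In CPM not divided by length this did not hold in HCT116 oxpl-R cells after oxaliplatin. There CDKN2B had 19.7 CPM, CDKN1C 16.9 and CDKN2C 8.35. The spread within groups was between 2.3% and 33.3% of the mean for the 7 genes.

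**Figure D1:**
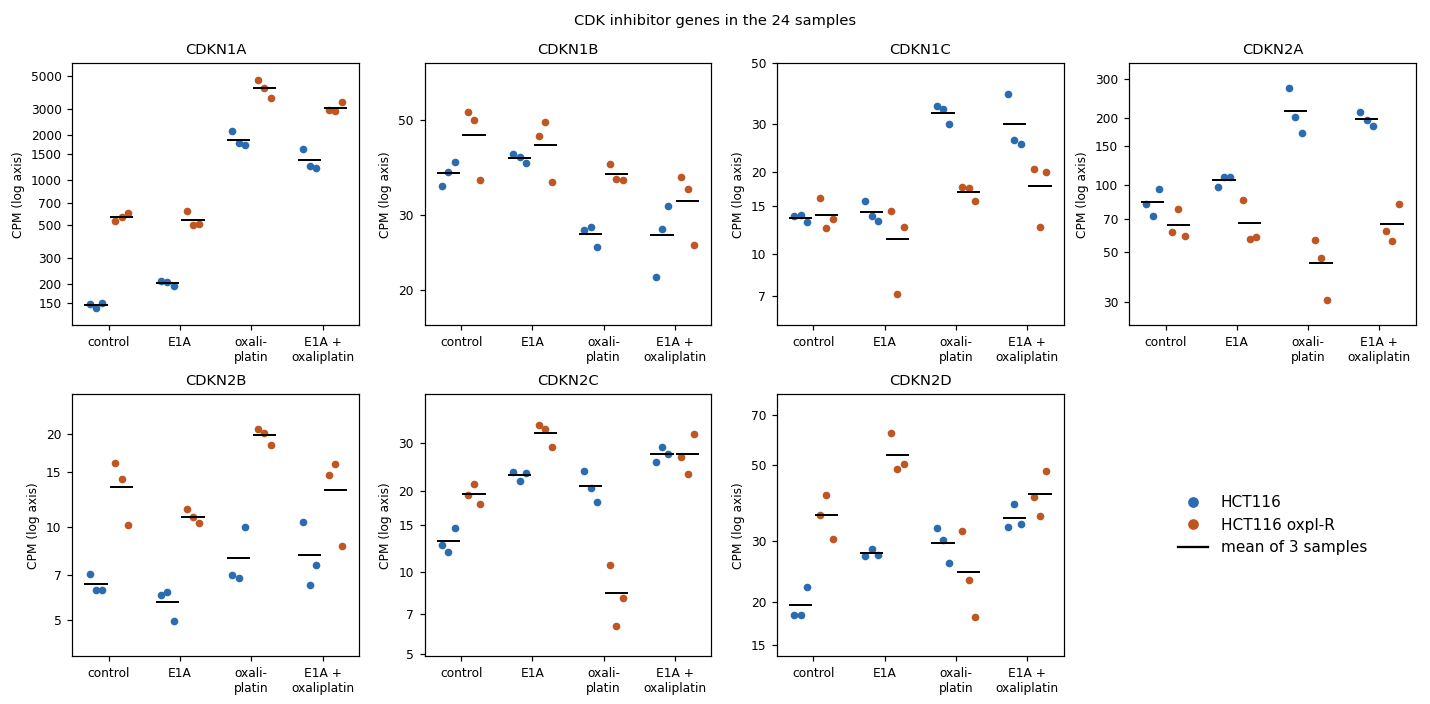
Levels of the 7 CDK inhibitor genes in CPM (log axis) in each of the 24 samples, by treatment; blue points are HCT116 samples, orange points HCT116 oxpl-R samples and black lines the means of 3 samples. The CDKN1A points after oxaliplatin lie at 1216 CPM or above in all 12 samples, and CDKN2C of HCT116 oxpl-R cells after oxaliplatin alone is the lowest group of that gene, at 6.35 to 10.6 CPM.

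CDKN1A encodes p21, the inhibitor through which p53 halts the cell cycle. It measured 147, 137 and 148 CPM in HCT116 control samples and 2136, 1776 and 1723 CPM after oxaliplatin. HCT116 oxpl-R samples held 530, 566 and 604 CPM in control samples and 4726, 4167 and 3554 CPM after oxaliplatin. The treated samples lay above the untreated ones in each line, and the resistant line lay above the parental one in each state, without overlap. Oxaliplatin raised CDKN1A by 3.70 on the log2 scale in HCT116 cells (SE 0.20, edgeR adjusted p = 5.97e-14, 13-fold) and by 2.87 in HCT116 oxpl-R cells (SE 0.19, adjusted p = 1.14e-11, 7.32-fold). Without HCT116 oxpl-R oxaliplatin replicate 1 the latter was 2.77 (adjusted p = 5.22e-11).

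With doxycycline, CDKN1A measured 211, 205 and 193 CPM in HCT116 cells and 1633, 1246 and 1216 CPM once oxaliplatin was added. The corresponding HCT116 oxpl-R samples held 618, 498 and 511 CPM and then 2958, 2915 and 3347 CPM. All samples with oxaliplatin again lay above those without. The rise was 2.75 on the log2 scale in HCT116 cells (SE 0.19, adjusted p = 6.57e-11) and 2.50 in HCT116 oxpl-R cells (SE 0.19, adjusted p = 2.96e-10). The order of the 8 group means ran from HCT116 control at 144 ± 6.15 CPM to HCT116 oxpl-R oxaliplatin at 4149 ± 586 CPM, and only HCT116 oxpl-R control and HCT116 oxpl-R E1A were neighbours whose samples overlapped.

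The level of CDKN1A was higher in HCT116 oxpl-R than in HCT116 cells in every treatment. The log2 difference was 1.97 in control (SE 0.18, adjusted p = 1.65e-09), 1.42 with E1A (SE 0.18, adjusted p = 1.1e-06), 1.14 after oxaliplatin (SE 0.18, adjusted p = 1.04e-05; 1.04 without the library low in mitochondrial counts) and 1.17 after E1A + oxaliplatin (SE 0.18, adjusted p = 1.4e-05). The response to oxaliplatin was smaller in the resistant line by 0.83 (log2, SE 0.25), which missed the threshold (adjusted p = 0.0687); it passed in 8 of 31 alternatives, among them DESeq2 (adjusted p = 0.000737) and the fit without HCT116 oxpl-R oxaliplatin replicate 1 (adjusted p = 0.0227). DINOL, a noncoding gene on the opposite strand that shares 146 exon bases with CDKN1A, had at most 26 counts in any sample, whereas CDKN1A had at least 4083.

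The 20 other p53 targets on a list were read beside CDKN1A. After oxaliplatin 15 of them rose in HCT116 cells and 17 in the resistant line, and none fell, where 17.4% and 6.11% of all genes were called. GDF15, a stress-induced cytokine of the TGF-beta family, rose by 2.94 (SE 0.23, adjusted p = 5.11e-10) and 2.01 (SE 0.22, adjusted p = 1.29e-07) on the log2 scale. BTG2, an antiproliferative gene, rose by 2.38 in HCT116 cells (SE 0.16, adjusted p = 2.41e-11), and MDM2, the ubiquitin ligase that degrades p53, rose by 2.08 in HCT116 oxpl-R cells (SE 0.21, adjusted p = 1.99e-08). In untreated cells 10 of the 20 were higher in HCT116 oxpl-R, with GDF15 (2.83, SE 0.23) and the apoptosis effector BAX (1.83, SE 0.18) at the top, and none was lower, where 14.1% of all genes were called. The median log2 change of the list after oxaliplatin was 1.12 in the parental and 1.25 in the resistant line, against -0.09 and 0.01 over all expressed genes.

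CDKN1B, at chr12:12685498-12722369, encodes p27, an inhibitor of CDK2 that is abundant in resting cells and is controlled largely by protein breakdown. It measured 35.1, 37.8 and 39.9 CPM in HCT116 control samples, 41.7, 40.9 and 39.6 CPM with E1A, 27.6, 28.1 and 25.2 CPM after oxaliplatin, and 21.5, 27.7 and 31.4 CPM after E1A + oxaliplatin. The 4 HCT116 oxpl-R groups held 52.2, 49.8 and 36.1 CPM in control, 45.9, 49.4 and 35.7 CPM with E1A, 39.5, 36.3 and 36.1 CPM after oxaliplatin, and 36.8, 34.4 and 25.5 CPM after E1A + oxaliplatin. Every neighbouring pair of groups in the order of their means overlapped, and the highest group mean was 1.72 times the lowest, the smallest ratio among the 7 members. CDKN1B fell by 0.60 on the log2 scale in E1A + oxaliplatin against E1A in HCT116 cells (SE 0.19, adjusted p = 0.0443), a call kept in 8 of 31 alternatives and lost among others without HCT116 E1A + oxaliplatin replicate 1 (-0.39, adjusted p = 0.265). Oxaliplatin against control gave -0.48 in HCT116 (SE 0.19, adjusted p = 0.0779) and -0.31 in HCT116 oxpl-R cells (SE 0.19, adjusted p = 0.481). Between the lines under oxaliplatin, where the samples did not overlap, the difference was 0.47 (SE 0.19, adjusted p = 0.0686), and it passed in 3 of 31 alternatives.

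Of 12 regulators of p27, 10 were analysed here, and SKP1 and SKP2, parts of the main ligase for p27, were not. After oxaliplatin 1 rose and 2 fell in HCT116 cells (17.4% of all genes) and 1 rose and 1 fell in HCT116 oxpl-R cells (6.11%). RNF123, a subunit of a ubiquitin ligase for p27, rose in both lines, by 0.51 (SE 0.16, adjusted p = 0.028) and 0.60 (SE 0.16, adjusted p = 0.021). COPS5, a subunit of the COP9 signalosome, fell by 1.03 in HCT116 cells (SE 0.32, adjusted p = 0.0246), as did CUL1, the scaffold of the SCF ligase, by 0.87 (SE 0.24, adjusted p = 0.0124). CDK2 fell by 0.57 in HCT116 oxpl-R cells (SE 0.16, adjusted p = 0.0298).

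CDKN1C, at chr11:2883213-2885775, encodes p57, an inhibitor from an imprinted locus that is best known from development. It measured 13.8, 13.9 and 13.1 CPM in HCT116 control samples and 34.9, 34.1 and 29.9 CPM after oxaliplatin, with no overlap. The HCT116 oxpl-R samples held 16.01, 12.4 and 13.4 CPM in control and 17.6, 17.5 and 15.7 CPM after oxaliplatin, and there the groups overlapped. Oxaliplatin raised CDKN1C by 1.28 on the log2 scale in HCT116 cells (SE 0.24, adjusted p = 0.000326, 2.43-fold), and in HCT116 oxpl-R cells it was 0.28 (SE 0.23, adjusted p = 0.654). The difference between these responses was -1.0 (SE 0.33) and did not pass the threshold (adjusted p = 0.1), though it did in 7 of 31 alternatives, DESeq2 included (adjusted p = 0.0161).

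The same direction was measured with doxycycline. CDKN1C went from 15.7, 13.8 and 13.2 CPM with E1A to 38.5, 26.2 and 25.4 CPM with E1A + oxaliplatin in HCT116 cells, a rise of 1.08 (SE 0.23, adjusted p = 0.00362). The resistant line went from 14.4, 7.13 and 12.51 CPM to 20.5, 12.6 and 20.03 CPM, and the groups overlapped (0.64, SE 0.23, adjusted p = 0.182). Under oxaliplatin CDKN1C was lower in the resistant line by 0.96 (SE 0.23, adjusted p = 0.00203), with -0.99 without the library low in mitochondrial counts (adjusted p = 0.00531). Under E1A + oxaliplatin it was lower by 0.76 (SE 0.23, adjusted p = 0.0183), a call that was lost without HCT116 E1A + oxaliplatin replicate 1 (-0.54, adjusted p = 0.148) or HCT116 oxpl-R E1A + oxaliplatin replicate 2 (-0.57, adjusted p = 0.154), and in limma (-0.42, adjusted p = 0.199). KCNQ1, a potassium channel gene of the same imprinted region, had a log2 change with oxaliplatin of -3.03 in HCT116 (SE 0.25, adjusted p = 7.49e-10) and of -2.44 in HCT116 oxpl-R cells (SE 0.24, adjusted p = 1.73e-08).

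CDKN2A, at chr9:21967752-21995301 on the minus strand, gives rise from separate first exons to the CDK4 and CDK6 inhibitor p16 and to ARF, which stabilizes p53, and the counts per gene hold both. CDKN2A was read as RNA only, without the sequence of its transcripts or its proteins, so functional p16 was not measured. It measured 82.1, 72.8 and 95.8 CPM in HCT116 control samples and 271, 202 and 171 CPM after oxaliplatin. The resistant line held 61.7, 77.8 and 59.2 CPM in control and 56.9, 46.9 and 30.5 CPM after oxaliplatin. The treated samples lay above the controls in HCT116 cells and below them in HCT116 oxpl-R cells, without overlap in either line. The change in HCT116 cells was 1.36 on the log2 scale (SE 0.21, adjusted p = 5.32e-05, 2.57-fold). The value in HCT116 oxpl-R cells, -0.56 (SE 0.21), did not pass (adjusted p = 0.129), and it did without replicate 1 of the treated group, the library low in mitochondrial counts (-0.78, SE 0.23, adjusted p = 0.0452).

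The responses of CDKN2A in the lines differed by -1.93 (log2, SE 0.30, adjusted p = 0.000237), and by -2.14 without that library (adjusted p = 7.9e-05). Under oxaliplatin CDKN2A was lower in HCT116 oxpl-R than in HCT116 cells by 2.26 (SE 0.22, adjusted p = 2.98e-09), a 4.79-fold difference, with -2.47 without that library (adjusted p = 1.21e-08). In untreated cells the difference was -0.34 (SE 0.21, adjusted p = 0.357). With E1A it measured 98.3, 108 and 109 CPM in HCT116 and 85.8, 57.2 and 58.7 CPM in HCT116 oxpl-R cells, and with E1A + oxaliplatin 213, 196 and 184 CPM and 62.4, 55.9 and 82.3 CPM. All HCT116 samples lay above the HCT116 oxpl-R samples in both states. The log2 differences were -0.64 (SE 0.21, adjusted p = 0.038, kept in 20 of 31 alternatives and lost without HCT116 oxpl-R E1A replicate 2, adjusted p = 0.165) and -1.56 (SE 0.22, adjusted p = 2.85e-06). Within HCT116 cells E1A + oxaliplatin was above E1A by 0.91 (SE 0.21, adjusted p = 0.00639), while within HCT116 oxpl-R cells the value was -0.01 (SE 0.21, adjusted p = 1).

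CDKN2B-AS1, a noncoding RNA transcribed across the locus from the opposite strand, shares 593 exon bases with CDKN2A. It had between 7 and 72 counts per sample, against at least 761 counts of CDKN2A. In HCT116 oxpl-R cells it measured 1.08, 1.31 and 1.58 CPM in control and 0.48, 0.30 and 0.28 CPM after oxaliplatin, a fall of 1.88 on the log2 scale (SE 0.38, adjusted p = 0.00116). Its response differed between the lines by -2.28 (SE 0.51, adjusted p = 0.0106). MTAP, a metabolic enzyme gene next to CDKN2A, fell after oxaliplatin in HCT116 cells by 1.21 (SE 0.19, adjusted p = 4.08e-05), where CDKN2A rose.

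CDKN2B, at chr9:22002903-22009305, encodes p15, an INK4 inhibitor known as a target of TGF-beta. It measured 7.06, 6.25 and 6.25 CPM in HCT116 control samples, 6.03, 6.18 and 4.96 CPM with E1A, 6.99, 6.86 and 10.01 CPM after oxaliplatin, and 10.4, 6.49 and 7.52 CPM after E1A + oxaliplatin. The resistant line held 16.1, 14.3 and 10.1 CPM in control, 11.4, 10.7 and 10.3 CPM with E1A, 20.7, 20.2 and 18.4 CPM after oxaliplatin, and 14.8, 15.9 and 8.68 CPM after E1A + oxaliplatin. The resistant line lay above the parental one in 3 of the 4 treatments without overlap, and the groups overlapped only in E1A + oxaliplatin. CDKN2B was higher in HCT116 oxpl-R cells by 1.05 in control (SE 0.24, adjusted p = 0.00264), 0.92 with E1A (SE 0.24, adjusted p = 0.00911) and 1.31 after oxaliplatin (SE 0.24, adjusted p = 9.8e-05), the last being 1.28 without the library low in mitochondrial counts (adjusted p = 0.000424). In control the call was lost in limma on the second table (0.95, adjusted p = 0.0613). The value of 0.69 in E1A + oxaliplatin (SE 0.24, adjusted p = 0.0405) was kept in 15 of 31 alternatives, and without HCT116 E1A + oxaliplatin replicate 2 it was 0.46 (adjusted p = 0.292). CDKN2B did not pass the test for any treatment within a line, and its values of largest size were in HCT116 oxpl-R cells, 0.55 for oxaliplatin against control (SE 0.24, adjusted p = 0.213) and -0.59 for E1A + oxaliplatin against oxaliplatin (SE 0.24, adjusted p = 0.352), both without overlap of the samples.

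Polycomb proteins are known to repress the INK4 locus, and 14 polycomb and related regulators of it were listed. The list was not split into genes that repress the locus and genes that activate it. In untreated cells 1 was higher in HCT116 oxpl-R, CBX7 (1.01, SE 0.18, adjusted p = 0.000163), and 4 were lower (14.1% of all genes), among them PHC2 (-0.63, SE 0.18) and CBX2 (-0.62, SE 0.18). Under oxaliplatin 1 was higher and 7 were lower (25.6% of all genes), led by CBX2 (-1.45, SE 0.19, adjusted p = 3.98e-07) and the histone methyltransferase EZH2 (-1.16, SE 0.17, adjusted p = 4.78e-06). EZH2 fell with oxaliplatin in HCT116 oxpl-R cells by 1.31 (SE 0.17, adjusted p = 3.27e-06), the treatment in which CDKN2A was at its lowest and CDKN2B at its highest in that line. With all libraries neither member was called there against control, and a link between EZH2 and these members was not tested.

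CDKN2C, at chr1:50960745-50974634, encodes p18, an INK4 inhibitor that E2F factors are known to induce. It measured 12.7, 11.9 and 14.6 CPM in HCT116 control samples and 23.7, 20.5 and 18.2 CPM after oxaliplatin. The HCT116 oxpl-R samples held 19.3, 21.2 and 17.9 CPM in control and 10.6, 6.35 and 8.06 CPM after oxaliplatin. The treated samples lay above the controls in the parental line and below them in the resistant line, without overlap. CDKN2C rose by 0.67 in HCT116 cells (log2, SE 0.20, adjusted p = 0.0177, lost without any one of HCT116 control replicates 1 and 2 and HCT116 oxaliplatin replicate 1, adjusted p up to 0.0942) and fell by 1.22 in HCT116 oxpl-R cells (SE 0.20, adjusted p = 0.000101). Without the library low in mitochondrial counts the latter was -1.43 (adjusted p = 3.98e-05). The difference between these responses was -1.89 (SE 0.28, adjusted p = 0.000142), and -2.11 without that library (adjusted p = 2.79e-05).

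With doxycycline CDKN2C measured 23.6, 21.8 and 23.3 CPM with E1A and 25.7, 29.1 and 27.4 CPM with E1A + oxaliplatin in HCT116 cells, and 35.1, 33.99 and 29.1 CPM and then 26.7, 23.1 and 32.6 CPM in HCT116 oxpl-R cells. Under oxaliplatin the addition of doxycycline raised CDKN2C in HCT116 oxpl-R cells by 1.72 on the log2 scale (SE 0.20, adjusted p = 2.6e-06, 3.29-fold), with no overlap of the samples, and the value was 1.93 without the library low in mitochondrial counts (adjusted p = 2.3e-06). In HCT116 cells the same comparison gave 0.39 (SE 0.20, adjusted p = 1). In cells without oxaliplatin, E1A against control gave 0.81 in HCT116 (SE 0.20, adjusted p = 0.0624) and 0.75 in HCT116 oxpl-R cells (SE 0.20, adjusted p = 0.163). In both lines the E1A samples lay above the controls, and the former value passed in 7 and the latter in 4 of 31 alternatives, DESeq2 in each case (adjusted p = 0.0013 and 0.0028).

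Between the lines CDKN2C was higher in untreated HCT116 oxpl-R cells by 0.58 (SE 0.20, adjusted p = 0.0493), kept in 14 of 31 alternatives, and lower under oxaliplatin by 1.32 (SE 0.20, adjusted p = 7.9e-06), with -1.53 without the library low in mitochondrial counts (adjusted p = 3.34e-06). With E1A the value was 0.52 (SE 0.20, adjusted p = 0.0803) and with E1A + oxaliplatin 0.01 (SE 0.20, adjusted p = 1), a value that was below 0 in some alternatives. A noncoding gene on the opposite strand shares 617 exon bases with CDKN2C and was not analysed here.

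CDKN2D, at chr19:10566460-10569059, encodes p19, the INK4 inhibitor that is known to oscillate with the cell cycle. It measured 18.4, 18.4 and 22.1 CPM in HCT116 control samples, 27.3, 28.4 and 27.5 CPM with E1A, 32.9, 30.3 and 25.9 CPM after oxaliplatin and 32.96, 38.5 and 33.7 CPM after E1A + oxaliplatin. The resistant line held 35.8, 40.96 and 30.6 CPM in control, 61.7, 48.7 and 50.2 CPM with E1A, 32.2, 23.2 and 18.1 CPM after oxaliplatin and 40.3, 35.5 and 48.02 CPM after E1A + oxaliplatin. Untreated HCT116 cells held the lowest group mean, 19.6 ± 2.14 CPM, and HCT116 oxpl-R E1A the highest, 53.6 ± 7.10 CPM. Oxaliplatin raised CDKN2D in HCT116 cells by 0.60 (log2, SE 0.20, adjusted p = 0.0341, lost without HCT116 control replicate 1 or 2 or HCT116 oxaliplatin replicate 1, adjusted p up to 0.134, and in limma, adjusted p = 0.062). The value in HCT116 oxpl-R cells was -0.55 (SE 0.20, adjusted p = 0.109), and -0.79 without the library low in mitochondrial counts (adjusted p = 0.016). The responses differed by -1.14 (SE 0.28, adjusted p = 0.0205), and by -1.39 without that library (adjusted p = 0.00253). The call was lost without HCT116 control replicate 1 (-1.10, adjusted p = 0.0701) or 2 (-1.10, adjusted p = 0.0771).

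CDKN2D was higher in HCT116 oxpl-R than in HCT116 cells by 0.87 in control (SE 0.20, adjusted p = 0.00239) and by 0.95 with E1A (SE 0.20, adjusted p = 0.00104), without overlap. Under oxaliplatin (-0.28, SE 0.20) and E1A + oxaliplatin (0.24, SE 0.20) it did not pass the test (adjusted p = 0.371 and 0.481). Doxycycline under oxaliplatin raised CDKN2D in HCT116 oxpl-R cells by 0.75 (SE 0.20, adjusted p = 0.0475). This call was kept in 13 of 31 alternatives: the value was 1.0 without the library low in mitochondrial counts (adjusted p = 0.00584) and 0.60 without HCT116 oxpl-R E1A + oxaliplatin replicate 3 (adjusted p = 0.3).

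**Figure D2:**
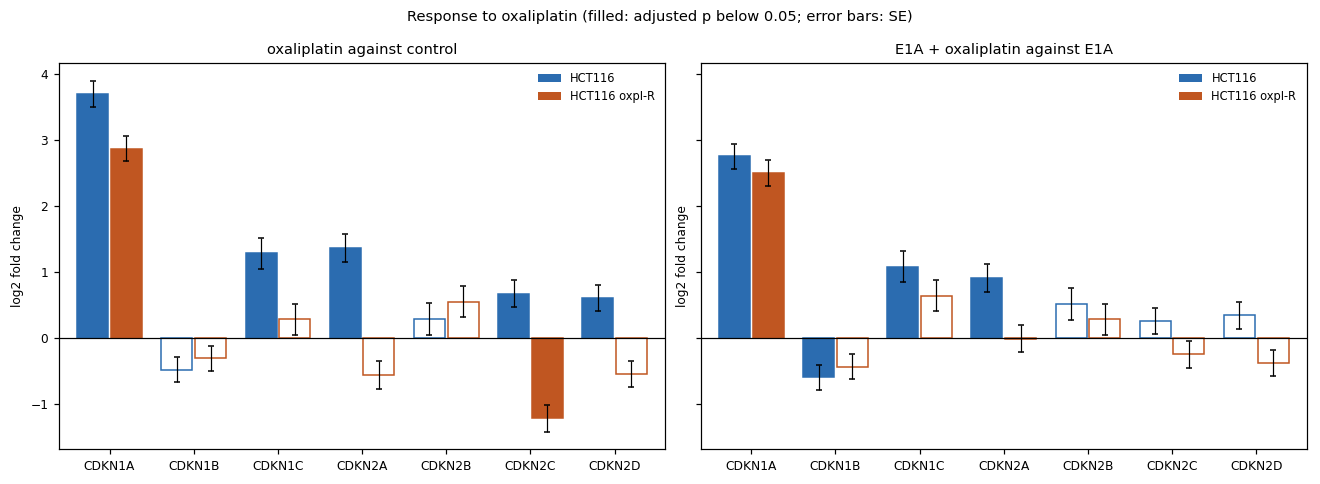
Log2 fold change of the 7 genes after oxaliplatin without (left) and with doxycycline (right); bars are edgeR estimates from 3 against 3 samples, error bars their standard errors (SE), filled bars an adjusted p below 0.05, blue HCT116 and orange HCT116 oxpl-R cells. CDKN1A is filled in all 4 comparisons, and CDKN2C points up in HCT116 (0.67) and down in HCT116 oxpl-R cells (-1.22) on the left.

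Counted over the family, oxaliplatin raised 5 of the 7 genes in HCT116 cells and lowered 0, where 17.4% of all genes tested were called, 8.74% higher and 8.61% lower. The resistant line had 1 member that rose and 1 that fell, beside 6.11% of all genes (3.1% up and 3.01% down), and without the library low in mitochondrial counts 4 members were called beside 4.68% of all genes, with CDKN2A and CDKN2D as the additional ones. With doxycycline 3 members rose and 1 fell in HCT116 cells (8.09% of all genes, 3.4% higher and 4.69% lower) and 1 rose in HCT116 oxpl-R cells (2.8%, 1.7% higher and 1.1% lower). The median log2 change of the members was 0.67 and -0.31 for oxaliplatin in the parental and the resistant line, and -0.09 and 0.01 over all expressed genes. In the test of the difference between the lines in this response 3 members were called, CDKN2A, CDKN2C and CDKN2D, all with a value below 0, beside 2.78% of all genes (0.864% higher, 1.91% lower), and 5 were called in DESeq2, beside 6.79% of all genes there. With RLE scaling in place of TMM, 5 members were called for oxaliplatin in HCT116 cells, 3 with doxycycline, where CDKN1B was lost, and 4 for this difference, where CDKN1A was added. The split over all genes moved in these comparisons in the same order from 1700 higher and 1675 lower to 2037 and 1333, from 662 and 912 to 887 and 603, and from 168 and 372 to 130 and 495.

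**Figure D3:**
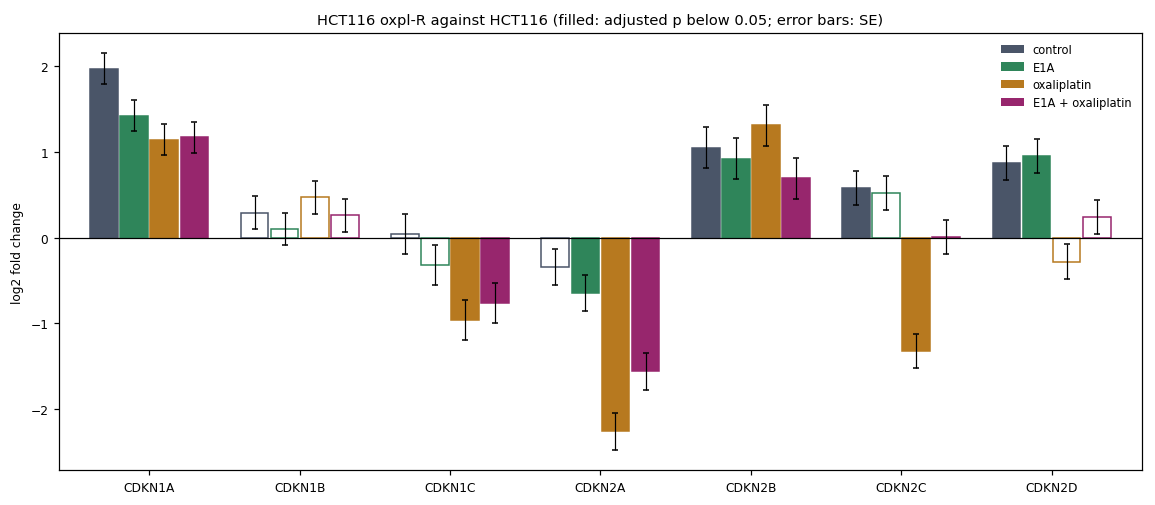
Log2 difference of HCT116 oxpl-R against HCT116 cells for the 7 genes in each of the 4 treatments; bars are edgeR estimates from 3 against 3 samples, error bars their standard errors and filled bars an adjusted p below 0.05. CDKN1A and CDKN2B are above 0 in all 4 treatments, and CDKN2A is lowest under oxaliplatin (-2.26).

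Between the lines, 4 members were higher in untreated HCT116 oxpl-R cells and 0 lower, where 14.1% of all genes were called, 7.19% higher and 6.93% lower. With E1A 3 were higher and 1 lower (14.4% of all genes, 6.69% higher and 7.75% lower), under oxaliplatin 2 were higher and 3 lower (25.6%, 13.7% higher and 12% lower), and under E1A + oxaliplatin 2 were higher and 2 lower (19.3%, 10.3% higher and 8.92% lower). CDKN1A and CDKN2B were higher in each of the 4 treatments, and CDKN1B was called in none of them. These comparisons share samples with those of oxaliplatin, so their values are given side by side only.

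Doxycycline alone changed 0 of the 7 members in HCT116 cells by edgeR, where 0.432% of all genes were called, 0.422% higher and 0.0103% lower. There 3 members had an unadjusted p below 0.05, and 1 was called in DESeq2 (0.982% of all genes) and 1 in limma (0.355%). A fit of only the samples compared called 9.5% of all genes and 3 members, CDKN1A (0.45, adjusted p = 0.00394), CDKN2C (0.77, adjusted p = 0.00077) and CDKN2D (0.46, adjusted p = 0.0189). Samples of E1A and control did not overlap for these 3 and CDKN2A, which were higher, or for CDKN2B, which was lower. The share of all genes without overlap was not counted, so this describes single genes and not the family. Doxycycline likewise changed 0 members in HCT116 oxpl-R cells by edgeR (0.226% of all genes), with 2 at an unadjusted p below 0.05. DESeq2 (0.612% of all genes) and limma (0.329%) called 1 each. Added to oxaliplatin, doxycycline changed 0 members in HCT116 cells (0.0874% of all genes), with 1 at an unadjusted p below 0.05. DESeq2 (0.118% of all genes) and limma (0.103%) called 0. It raised 2 in HCT116 oxpl-R cells, CDKN2C and CDKN2D, beside 1.39% of all genes (1.29% higher, 0.103% lower), and 0 fell.

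The difference between the lines in the response to doxycycline called 0 members by edgeR and 0.0103% of all genes, 0.00514% in each direction, with 1 member at an unadjusted p below 0.05. DESeq2 (0.0103% of all genes) and limma (0.00514%) called 0 members. The interaction of doxycycline and oxaliplatin called 0 members in HCT116 cells (0.0103% of all genes, 0.00514% in each direction), where CDKN1A had an unadjusted p of 0.000666 for a value of -0.95 (SE 0.25). CDKN1A was the 1 member called in DESeq2 (adjusted p = 0.0329, 0.0411% of all genes), with 0 in limma (0% of all genes). In HCT116 oxpl-R cells the interaction also called 0 (0.036% of all genes), where CDKN2C had an unadjusted p of 0.00172 for a value of 0.97 (SE 0.28). DESeq2 (0.17% of all genes) and limma (0.0617%) called 0 there.

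Among the partners of the inhibitors, 11 cyclins and CDKs were counted. After oxaliplatin 2 rose and 2 fell in HCT116 cells (17.4% of all genes), and 1 rose and 5 fell in HCT116 oxpl-R cells (6.11%). CCNB1, the mitotic cyclin B1, fell by 1.46 in HCT116 (SE 0.34, adjusted p = 0.00298) and by 1.74 in HCT116 oxpl-R cells (SE 0.34, adjusted p = 0.000859). CDK4, the kinase that INK4 proteins bind, rose by 0.71 in HCT116 cells (SE 0.19, adjusted p = 0.00798), and so did CCND3, a D-type cyclin, by 0.90 (SE 0.17, adjusted p = 0.000536). CCNA2, the cyclin of S and G2 phase, fell by 1.2 in HCT116 cells (SE 0.32, adjusted p = 0.00864) and by 2.47 in HCT116 oxpl-R cells (SE 0.33, adjusted p = 4.62e-06). CCND1, cyclin D1, was higher in HCT116 oxpl-R than in HCT116 cells in control (0.79, SE 0.17, adjusted p = 0.00145) and under oxaliplatin (1.60, SE 0.17, adjusted p = 2.31e-08), while CCNA2 (-1.57, SE 0.33, adjusted p = 0.000386), CCND3 (-1.4, SE 0.17, adjusted p = 2.42e-07) and CDK2 (-1.03, SE 0.16, adjusted p = 1.21e-05) were lower under oxaliplatin. Of the 3 pocket proteins, RB1, RBL1 and RBL2, all fell after oxaliplatin in HCT116 cells, RBL1 by 1.04 (SE 0.29, adjusted p = 0.0134), and 1, RBL1, fell in HCT116 oxpl-R cells (-1.48, SE 0.30, adjusted p = 0.00132).

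The 22 E2F targets of S phase were counted beside CDKN2C and CDKN2D. After oxaliplatin 11 fell in HCT116 cells and 20 in the resistant line, and 0 rose, beside 17.4% and 6.11% of all genes. Doxycycline under oxaliplatin raised 17 in HCT116 oxpl-R cells, led by E2F1 (2.20, SE 0.18, adjusted p = 1.11e-09), beside 1.39% of all genes. The difference between the lines in the response to oxaliplatin was below 0 and called for 13, beside 2.78% of all genes, with E2F1 (-2.60, SE 0.24, adjusted p = 1.44e-07) and the replication licensing factor CDT1 (-2.46, SE 0.28, adjusted p = 2.52e-06) at the end. The median of the list was -0.57 in HCT116 and -1.81 in HCT116 oxpl-R cells after oxaliplatin. In HCT116 cells the sign of the list's median was opposite to that of CDKN2C (0.67) and CDKN2D (0.60). E2F1, a gene of the list, measured 86.6 ± 9.63 CPM in control and 120 ± 7.07 CPM after oxaliplatin there and was not called higher. A link between E2F1 and these members was not tested.

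The genes whose log2(CPM + 1) followed each member most closely over the 24 samples are given as a description; the samples share libraries, depth and 8 groups. For CDKN1A these were HES2, BTG2 and INPP5D, each with Pearson r = 0.983, for CDKN1B RCN1 (0.918), PMPCB (0.917) and GALNT12 (0.899), and for CDKN1C PITPNM1 (0.942), LYPD3 and CXXC5 (0.941 each). For CDKN2A they were DUSP23 (0.986), IGFBP2 (0.980) and COMMD5 (0.975), and for CDKN2B DRD1 (0.942), LINC00205 (0.941) and APOBEC3F (0.938). CDKN2C was followed by RNASEH2C (0.879), E2F1 (0.869) and RPRML (0.863), and CDKN2D by RASSF1 (0.886), LMCD1 (0.880) and HAR1A (0.867). Among the members themselves r was highest for CDKN2C with CDKN2D (0.79) and CDKN1C with CDKN2A (0.74), and lowest for CDKN1B with CDKN1C (-0.81) and CDKN2A with CDKN2B (-0.63), which adjoin on the same chromosome.

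**Figure D4:**
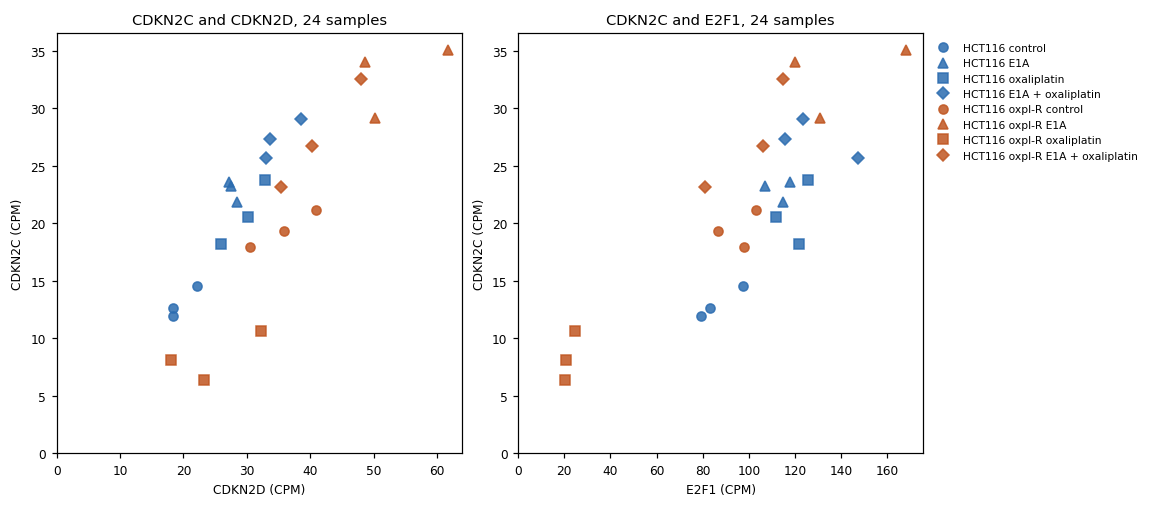
CDKN2C against CDKN2D (left) and against E2F1 (right), in CPM for the 24 samples; colour gives the line and shape the treatment. The 3 HCT116 oxpl-R samples with oxaliplatin alone lie lowest in CDKN2C and hold 20.3 to 24.5 CPM of E2F1, while all other samples hold at least 79.2 CPM of E2F1.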

How the data were processed

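RNA of 24 samples was sequenced in read pairs. Trimming by Trimmomatic, quantification against GENCODE transcripts of GRCh38 by Salmon 1.6.0 (bias corrections switched on) and a gene-level summary by tximport were done by the authors. The deposited values are estimated counts without normalization, of which 15.9% to 30.4% per sample were not whole, and these were rounded here. The first of the deposited count tables gave 33113 genes, sorted by symbol and ending before the last letters, so CPM refer to those genes. A second deposited table, named as TPM, holds 37967 genes. Its columns sum to 28004261 to 42613322. Over the genes that both tables share, its totals were 0.992 to 1.002 times those of the first table, so it was read as length-scaled estimated counts. This differs from the unit assumed at planning. An incomplete last row of each file was left out. A strand setting was not given in the sources used here.

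Groups followed the labels. Counts of the samples of a group differed beyond sampling noise (chi-square per degree of freedom 10.64 to 619.52), so each library was counted once. Nothing in the labels says whether replicates came from separate cultures on separate days, so p-values measure the spread between these samples. Genes with a count in any sample were fitted in R 4.3.3 with edgeR 4.0.16 (TMM, quasi-likelihood test, all 24 samples and 8 groups in one fit, 16 comparisons) and p-values were adjusted by Benjamini-Hochberg over all 19452 genes; calls have an adjusted p below 0.05. Tests are two-sided. Fitting was tested on simulated data. Alternatives were RLE normalization, genes kept by filterByExpr, DESeq2 1.42.0, a fit of only the groups compared, the replicate number as a block, each library left out in turn (24 fits), and limma 3.58.1 with the second table as log2 values, adding either 1 or 0.1 first, 31 in all. Tables were handled in Python 3.11.15 with pandas 2.3.3, numpy 2.4.6 and scipy 1.17.1, and plots drawn with matplotlib 3.10.9.

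Members and lists were chosen with earlier results of these data known. Named genes are the members, the 3 most alike genes of each, and genes among the 3 called genes of a list with the largest change, not all of which are named; neighbours in the genome are named beside the members, and CDK4 and the levels of E2F1 were added after their values were seen. Deviations from the group means went together at r above 0.1 for every replicate number in 2 of 12 comparisons. These were HCT116 oxpl-R against HCT116 under oxaliplatin (r = 0.141 to 0.253) and E1A + oxaliplatin against E1A in HCT116 oxpl-R cells (r = 0.419 to 0.529). There the block left the counts of members called at 5 and 1, beside 27.1% and 3.37% of all genes (25.6% and 2.8% without it). Positions are from GENCODE and sequences from RefSeq or GRCh38. CDKN1C was not matched to a window.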

Additional observations from a re-analysis of the deposited data

Results flagged for a closer look

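In 3 members the response to oxaliplatin differed between the lines by the test of the difference itself (edgeR, adjusted p below 0.05). CDKN2A had a difference of -1.93 on the log2 scale (HCT116 oxpl-R minus HCT116), from a rise in HCT116 cells to a value below 0 in HCT116 oxpl-R cells. For CDKN2C the difference was -1.89, with a rise in the parental and a fall in the resistant line, all 3 samples of each group lying on the side of the change. CDKN2D had a difference of -1.14, and this call was lost without HCT116 control replicate 1 or 2. Without HCT116 oxpl-R oxaliplatin replicate 1, in which 1.4% of counts were mitochondrial, the differences were -2.14 for CDKN2A, -2.11 for CDKN2C and -1.39 for CDKN2D.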

How the results depend on the processing

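Of 34 calls on the members, 24 held under all 31 alternatives and 10 were lost under at least 1, and no call changed direction. Of 78 values that were not called, 66 were called under none. The number of CDK inhibitor genes called changed by more than 1.5 times, or from or to 0, as follows. For HCT116 oxpl-R against HCT116, E1A + oxaliplatin, 4 members were called (19.3% of all genes). This became 2 in both limma fits (18.3% and 17.5%) and in the fit of only the groups compared (18.5%). For E1A against control in HCT116, 0 (0.432%) became 1 with filterByExpr (0.924%), the replicate block (0.54%), DESeq2 (0.982%) and both limma fits (0.355% and 0.344%). It became 3 in the fit of only the groups compared (9.5%). In HCT116 oxpl-R 0 (0.226%) became 1 with filterByExpr (0.533%), DESeq2 (0.612%) and both limma fits (0.329% and 0.303%). For E1A + oxaliplatin against oxaliplatin in HCT116 oxpl-R, 2 members were called (1.39%, 270 genes). This became 1 with RLE, where 260 genes were called in all. It also became 1 in the fit of only the groups compared (0.638%, 107 genes). The line difference in the response to oxaliplatin went from 3 (2.78%) to 5 with filterByExpr (8.15%), the replicate block (4.17%) and DESeq2 (6.79%). The doxycycline by oxaliplatin interaction in HCT116 went from 0 (0.0103%) to 1 with DESeq2 (0.0411%). Every sample was closest to its own number in 1 of 12 comparisons. Outside the comparisons named in the methods, numbers also went together in part. In HCT116 oxpl-R, r was 0.084 to 0.547 for oxaliplatin against control, with 5 of 6 samples closest to their own number. It was 0.028 to 0.678 for E1A against control, with 4 of 6. There the block left the members called at 2 and 0, beside 6.99% and 0.257% of all genes (6.11% and 0.226% without it). By contrast, r was below 0 throughout for the lines in control and, in HCT116, for oxaliplatin and for E1A against control.

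With a library left out, the CDK inhibitor genes called ranged from 2 to 4 for HCT116 oxpl-R against HCT116, E1A + oxaliplatin, 3 to 5 for oxaliplatin in HCT116, 2 to 4 in HCT116 oxpl-R, 0 to 1 for E1A in HCT116, 1 to 2 for E1A + oxaliplatin against oxaliplatin in HCT116 oxpl-R and 2 to 5 for the line difference in the response to oxaliplatin. With all libraries 19.3%, 17.4%, 6.11%, 0.432%, 1.39% and 2.78% of all genes were called, in that order. Without HCT116 oxpl-R oxaliplatin replicate 1 the shares were 20.6%, 18.9%, 4.68%, 0.511%, 1.16% and 4.16%. Shares in the other fits that left a library out are not given here.

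Values near 0 that were not called changed sign. CDKN2C in the lines under E1A + oxaliplatin was -0.04 with RLE, filterByExpr and DESeq2 and -0.06 in limma, and -0.22 to 0.12 with a library left out. CDKN2A in E1A + oxaliplatin against E1A, HCT116 oxpl-R, was 0.01 with the replicate block and -0.20 to 0.21 with a library left out. In limma, for E1A against control in HCT116 oxpl-R, CDKN1A was 0.05 and CDKN1B 0.04. Also in limma CDKN1B was 0.09 for E1A + oxaliplatin against oxaliplatin in HCT116, and for the line difference in the response to doxycycline CDKN2B was 0.07 and CDKN2C 0.15 or 0.14. With a library left out the ranges were -0.08 to 0.13 (CDKN1C, lines, control), -0.01 to 0.12 (CDKN1C, E1A, HCT116), -0.22 to 0.05 (CDKN1B, E1A, HCT116 oxpl-R) and -0.19 to 0.13 (CDKN2A, the same comparison). For E1A + oxaliplatin against oxaliplatin they were -0.12 to 0.08 (CDKN1B), -0.26 to 0.07 (CDKN2A) and -0.23 to 0.24 (CDKN2B) in HCT116 and -0.06 to 0.26 (CDKN1C) in HCT116 oxpl-R. For the line difference in the response to doxycycline they were -0.30 to 0.05 (CDKN2B), -0.12 to 0.02 (CDKN2C) and -0.03 to 0.20 (CDKN2D), and for the doxycycline by oxaliplatin interaction -0.22 to 0.01 (CDKN1B, HCT116), -0.26 to 0.01 (CDKN1B, HCT116 oxpl-R) and -0.02 to 0.42 (CDKN2D, HCT116 oxpl-R). The cause of these changes was not tested.

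Counts over all genes moved by more than 1.5 times as follows. In the fit of only the groups compared, 2747 became 4737 for the lines in control, 1188 became 692 for oxaliplatin in HCT116 oxpl-R, 545 became 357 for E1A + oxaliplatin against E1A in HCT116 oxpl-R, 84 became 1559 for E1A in HCT116, 44 became 13 for E1A in HCT116 oxpl-R, and for doxycycline under oxaliplatin 17 became 4 in HCT116 and 270 became 107 in HCT116 oxpl-R. In DESeq2 1188 became 1793, 545 became 931, 84 became 191, 44 became 119 and 270 became 546 in the same comparisons, and 1574 became 2473 for E1A + oxaliplatin against E1A in HCT116. The 540 genes of the line difference in the response to oxaliplatin became 979 with filterByExpr, 811 with the replicate block and 1321 in DESeq2, and limma called 430 or 410 genes in place of 270. The other interactions, with 2, 2 and 7 genes, ranged from 0 to 33.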
